A study of Mus musculus with 2 samples.

Results

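The 28 genes described here encode the enzymes that build cholesterol and the proteins that set their output, out of 26840 genes in the merged expression table of both libraries. They were chosen by name, with earlier results of these data known. They comprise 19 synthesis enzymes, 6 genes of the sterol-sensing control of SREBP, and 3 genes of sterol transport and sensing. The cells came from the arcuate nucleus and median eminence, at the base of the hypothalamus, of adult CD-1 mice aged 7 to 8 weeks. One Drop-seq library was made from a pool of 6 mice with both copies of Irx5 lost (Irx5-/-, called Irx5KO), and 1 from a pool of 7 wild-type mice (WT). Live cells were sorted before capture, and the labels give no treatment. Drop-seq captures single cells in droplets and counts the 3' ends of transcripts by unique molecular identifiers (UMIs). Irx5, a homeobox gene, had 0 UMIs in the Irx5KO library, where 3 UMIs would be 0.610 CPM and the exact 95% interval reaches 0.75 CPM, against 13 UMIs, or 3.35 CPM (1.78 to 5.72), in WT. CPM are UMIs per 1000000 UMIs.

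After filtering, 1949 Irx5KO cells with 4915775 UMIs and 1819 WT cells with 3884458 UMIs remained, with medians of 1692 and 1620 UMIs per cell. Clusters were named from marker genes, after clustering without the 28 genes or their pathway relatives. The oligodendrocyte-like class held 116 Irx5KO and 192 WT cells, the tanycyte-like class 392 and 284, the class of oligodendrocyte precursor (OPC)-like cells 77 and 186, and the neuron-like class 897 and 619. Levels of a class are CPM of its own UMIs, summed over its cells in 1 library, and their 95% intervals cover counting error only. A lower level per cell cannot be told from fewer expressing cells within a class. The class names rest on these markers, so their presence is no separate check of the tissue label. Of the 10 tanycyte markers, Slc17a8 was at 0 in Irx5KO tanycyte-like cells.

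Cells make cholesterol from acetyl-CoA through mevalonate, isoprenoid diphosphates, squalene and lanosterol. SREBP transcription factors, held in the endoplasmic reticulum by SCAP and INSIG proteins while sterol is plentiful, are cut and released when sterol runs low and switch on the enzymes. Cholesterol crosses the blood-brain barrier poorly, so the brain makes its own, and oligodendrocytes use much of it for myelin. Liver X receptors sense oxidised sterols and switch on efflux pumps such as ABCA1 together with Srebf1.

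Promoter sequences were searched for 2 motifs through which SREBP and its partner NF-Y are known to act on genes of this pathway. RefSeq promoters (GRCm38.p6, 250 bases before to 50 bases after a start) were at hand for 24 of the 28 genes, not for Sqle, Fdft1, Fdps and Stard4. The 4 below belong to the genes with the smallest adjusted p in oligodendrocyte-like over neuron-like cells. Capitals mark the sterol regulatory element core TCACNCCAC and the CCAAT box, the letters NF-Y binds, which reads ATTGG where it lies on the opposite strand. They lie at chr13:119690101-119690400 (plus strand), chr8:64733529-64733828 (minus strand), chr5:4104648-4104947 (minus strand) and chr5:28071162-28071461 (plus strand), each printed 5' to 3' on the gene's strand.
Hmgcs1: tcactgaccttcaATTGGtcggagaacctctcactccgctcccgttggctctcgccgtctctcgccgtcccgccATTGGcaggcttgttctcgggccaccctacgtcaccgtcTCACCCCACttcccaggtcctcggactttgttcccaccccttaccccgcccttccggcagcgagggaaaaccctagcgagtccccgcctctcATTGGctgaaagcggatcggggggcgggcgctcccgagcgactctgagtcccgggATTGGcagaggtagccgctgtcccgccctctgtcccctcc
Msmo1: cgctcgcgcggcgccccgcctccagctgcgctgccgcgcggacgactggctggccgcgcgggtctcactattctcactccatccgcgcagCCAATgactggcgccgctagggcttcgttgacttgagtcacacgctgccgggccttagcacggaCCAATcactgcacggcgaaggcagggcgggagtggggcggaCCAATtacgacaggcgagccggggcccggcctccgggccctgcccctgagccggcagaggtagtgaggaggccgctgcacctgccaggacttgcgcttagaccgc
Cyp51: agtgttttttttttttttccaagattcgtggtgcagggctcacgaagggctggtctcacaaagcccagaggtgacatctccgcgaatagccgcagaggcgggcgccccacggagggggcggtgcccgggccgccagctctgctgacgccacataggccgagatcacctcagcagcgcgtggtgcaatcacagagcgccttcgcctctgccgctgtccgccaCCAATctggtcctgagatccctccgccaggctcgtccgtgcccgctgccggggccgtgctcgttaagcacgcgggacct
Insig1: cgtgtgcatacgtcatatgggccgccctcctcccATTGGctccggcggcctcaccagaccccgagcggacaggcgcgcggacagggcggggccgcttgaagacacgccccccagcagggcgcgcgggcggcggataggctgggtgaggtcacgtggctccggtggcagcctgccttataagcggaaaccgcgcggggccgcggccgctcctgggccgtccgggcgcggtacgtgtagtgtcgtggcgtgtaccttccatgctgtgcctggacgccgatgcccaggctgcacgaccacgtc
Hmgcs1 carried the element core, as TCACCCCAC at 137 bases before its start, and 4 CCAAT boxes. It was the 1 gene of 24 with that core, which 1.24% of 32851 mouse promoters of the same length held on either strand. A CCAAT box stood in the promoters of 19 of the 24 genes, or 20 of their 32 promoters, against 37.4% of all promoters. The 2 motifs share no letters where they were found. A match is a string of letters and not a measured binding site. Only these exact letters, with N as any base, were searched. A promoter without a match may therefore still hold a variant of the element.

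Taken as a sum, transcripts of the 19 synthesis enzymes were most abundant in oligodendrocyte-like and astrocyte-like cells. In oligodendrocyte-like cells they made up 2265 CPM in the Irx5KO library (604 UMIs) and 1752 CPM in WT (713 UMIs). OPC-like cells had 1129 CPM in Irx5KO and 998 CPM in WT, tanycyte-like cells 729 and 597 CPM, and neuron-like cells 818 and 839 CPM. The ratio of oligodendrocyte-like to neuron-like cells was 2.77 (95% interval 2.53 to 3.03) in Irx5KO and 2.09 (1.91 to 2.28) in WT. Tanycyte-like cells stood below neuron-like cells in both libraries, at 0.891 in Irx5KO and 0.711 in WT, both intervals ending below 1. These are plain CPM ratios. The scaling factors of the tests below were 1.01 in tanycyte-like and 1.12 in neuron-like cells of Irx5KO, and 0.978 and 1.05 in WT. They would bring both ratios nearer 1. The larger cluster of tanycyte-like cells had 884 CPM in Irx5KO, above neuron-like cells, and 693 CPM in WT, below them. Astrocyte-like cells, of which there were 45 in Irx5KO and 15 in WT, had 1958 CPM (1629 to 2335) and 1692 CPM (1185 to 2343). Their intervals overlap those of oligodendrocyte-like cells of the same library. The lowest values were 365 CPM in endothelial-like cells of Irx5KO, on 7 UMIs, and 233 CPM in microglia-like cells of WT, on 17 UMIs. The other library had 793 CPM in endothelial-like cells (WT) and 434 CPM in microglia-like cells (Irx5KO).

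**Figure D1:**
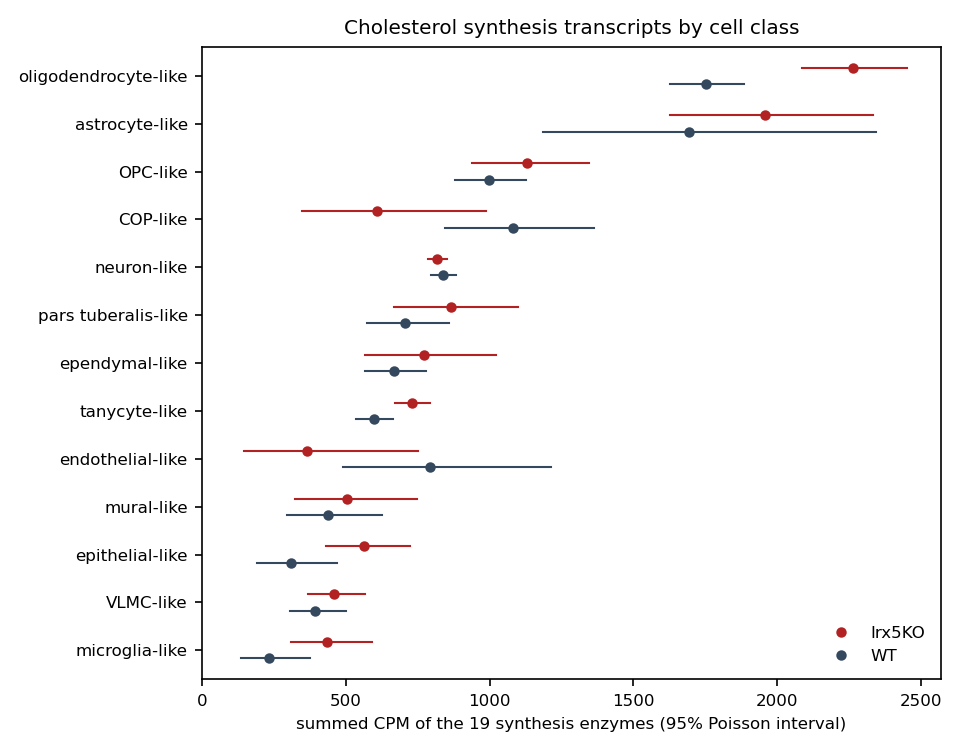
Summed level of the 19 cholesterol synthesis enzymes in each of 13 cell classes, in CPM, with exact Poisson 95% intervals, Irx5KO drawn above WT. Oligodendrocyte-like cells (2265 CPM in Irx5KO and 1752 CPM in WT) and astrocyte-like cells (1958 and 1692 CPM) lie to the right of all other classes in both libraries.

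In oligodendrocyte-like over neuron-like cells, 19 of the 27 genes tested were higher and 2 were lower. Idi1, which interconverts the 5-carbon isoprenoid units, had too few UMIs to test. Calls are from edgeR's quasi-likelihood test on the sums of 4 classes in 2 libraries, with the library as a block and Benjamini-Hochberg adjustment over 13135 genes at 0.05. Of all genes tested 18.3% were called higher and 22.7% lower in this contrast, and the median log2 fold was 1.57 over the members and -0.23 over all genes. Of all 28 members, Idi1 included, 21 had a higher CPM in oligodendrocyte-like cells in each library. The share of all genes that did so was not counted.

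The first committed steps were among the strongest. Hmgcs1, the synthase that makes HMG-CoA from acetyl units, had 544 CPM in Irx5KO and 447 CPM in WT oligodendrocyte-like cells, against 96.8 and 101 CPM in neuron-like cells. The oligodendrocyte-like values lie far above the neuron-like ones in both libraries, and the fitted fold was 6.89 (edgeR adjusted p = 3.09e-59). Of the 145 Hmgcs1 UMIs in Irx5KO oligodendrocyte-like cells, found in 44 cells, a single cell held 35. Of the 182 in WT, found in 66 cells, a single cell held at most 13. Acat2 (2.97-fold), which condenses acetyl-CoA, Mvk (3.36-fold) and Mvd (2.73-fold), a kinase and the decarboxylase of the mevalonate steps, and Fdps (3.45-fold), which makes farnesyl diphosphate, were also higher. Pmvk, the kinase between Mvk and Mvd, was not called, with 105 and 71.3 CPM in oligodendrocyte-like cells against 119 and 93.8 CPM in neuron-like cells (Irx5KO and WT). Ggps1, which diverts farnesyl diphosphate to geranylgeranyl diphosphate and so away from sterols, went the other way. It had 15 CPM in Irx5KO and 36.9 CPM in WT oligodendrocyte-like cells, against 69.3 and 78.6 CPM in neuron-like cells, 1.97-fold lower (edgeR adjusted p = 0.019). That call was lost with DESeq2, without the library block, and with cells of at least 200 genes.

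All 3 enzymes from squalene to lanosterol were called higher. Fdft1, squalene synthase, was 2.33-fold and Lss, lanosterol synthase, 4.72-fold higher. Sqle, squalene epoxidase, was called at 1.82-fold (edgeR adjusted p = 0.0139), but the libraries differed in direction. Its CPM ratio of oligodendrocyte-like to neuron-like cells was 2.08 in Irx5KO and 0.786 in WT.

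Of the 8 enzymes between lanosterol and cholesterol, 7 were higher. Cyp51, the lanosterol demethylase, had 259 CPM in Irx5KO and 165 CPM in WT oligodendrocyte-like cells, against 68.7 and 58.8 CPM in neuron-like cells, a fold of 4.49 (edgeR adjusted p = 3.81e-22). Msmo1, the methylsterol oxidase that follows, had 341 and 231 CPM in oligodendrocyte-like cells, against 90.3 and 111 CPM in neuron-like cells (Irx5KO and WT), a fold of 3.84 (edgeR adjusted p = 2.29e-23). Neither gene's groups overlap. Ebp (6.39-fold), the sterol isomerase, Dhcr7 (5.35-fold), the last reductase of one branch, Hsd17b7 (4.77-fold), Sc5d (3.33-fold) and Nsdhl (2.31-fold) were also higher. Tm7sf2, a sterol reductase, was not called, with 7.50 CPM in Irx5KO and 12.3 CPM in WT oligodendrocyte-like cells, against 12.3 and 6.78 CPM in neuron-like cells.

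The control genes were split. Insig1, an SREBP target whose product holds SCAP back, had 180 CPM in Irx5KO and 108 CPM in WT oligodendrocyte-like cells, against 37.2 and 32.2 CPM in neuron-like cells, 5.67-fold higher (edgeR adjusted p = 4.23e-21). Its relative Insig2 had 45.0 CPM in Irx5KO and 19.7 CPM in WT oligodendrocyte-like cells, against 141 and 138 CPM in neuron-like cells, 3.41-fold lower (edgeR adjusted p = 1.73e-07). The groups of neither gene overlap, and the 2 paralogs were called in opposite directions. Srebf1 was 8.46-fold and Srebf2, the factor best known for driving the sterol enzymes, 2.14-fold higher. Scap and Mbtps1, the protease that makes the first cut in SREBP, were not called, and their adjusted p-values were 0.156 and 0.0645 (edgeR). Nr1h2, which encodes liver X receptor beta, was 4.76-fold higher, while Stard4, a sterol carrier, and Abca1 were not called.

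**Figure D2:**
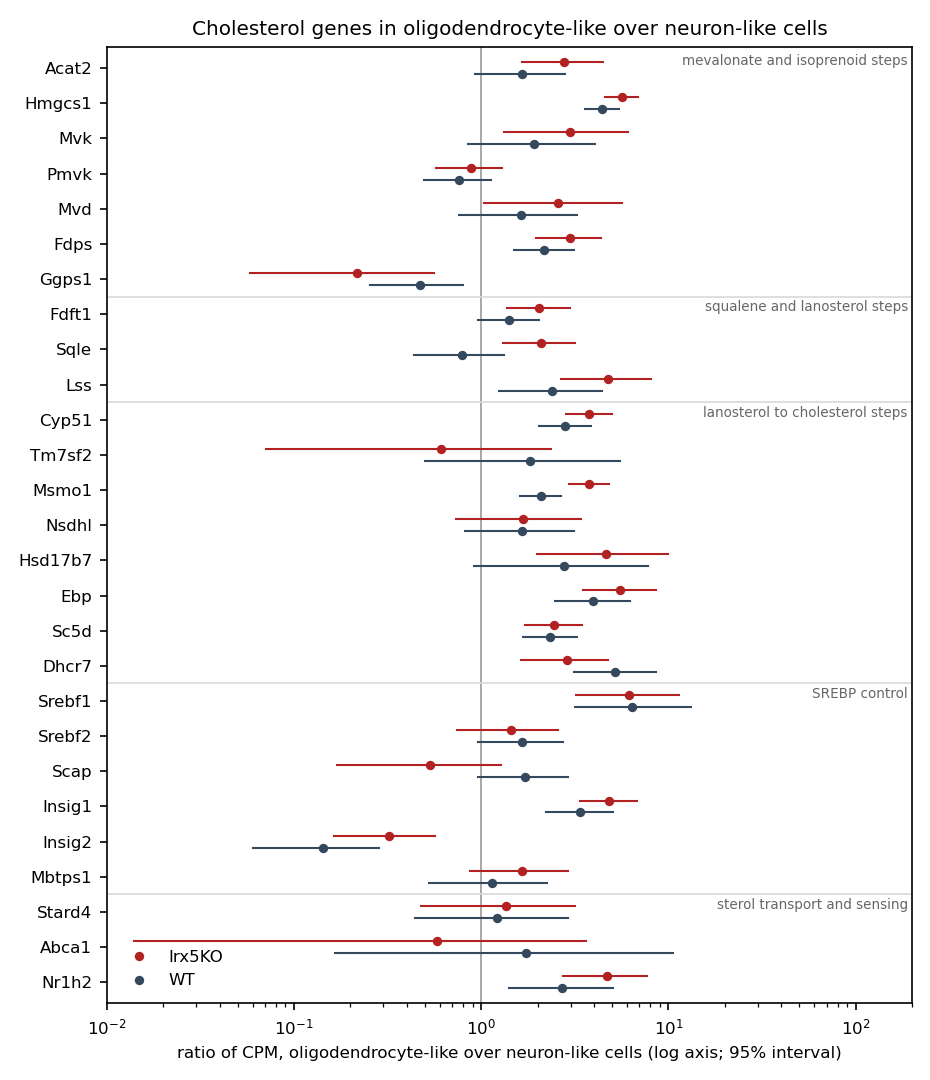
Ratio of CPM in oligodendrocyte-like over neuron-like cells for the 27 members tested, on a log axis with exact conditional binomial 95% intervals, Irx5KO above WT, grouped by role. Hmgcs1, Cyp51, Msmo1 and Insig1 lie to the right of 1 in both libraries, Insig2 and Ggps1 to the left, and Sqle falls on opposite sides.

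The folds carry the TMM scaling, which weighs libraries by the bulk of genes, so they exceed the plain CPM ratios for this class. With library totals in its place, a setting chosen after seeing the data, the median gene moved by -0.46 on the log2 scale, and 12.9% of all genes were called higher and 36.8% lower. On that scale 15 members were higher, and Mvd, Sqle, Nsdhl and Srebf2 were no longer called. The median gene moved by -0.13 in tanycyte-like and by 0.10 in OPC-like over neuron-like cells. Neuron markers summed in oligodendrocyte-like cells to 4.01% (Irx5KO) and 2.70% (WT) of their neuron-like level, with Rbfox3 at 0, and oligodendrocyte markers in neuron-like cells to 0.223% and 0.286%.

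Against the precursors from which they arise, oligodendrocyte-like cells had 9 members higher and 1 lower, where 10.4% and 10.3% of all genes were called. The 9 were Hmgcs1, Fdps, Fdft1, Lss, Cyp51, Msmo1, Ebp, Sc5d and Insig1. Hmgcs1 had 147 CPM in Irx5KO and 99.1 CPM in WT OPC-like cells, and was 6.22-fold higher in oligodendrocyte-like cells (edgeR adjusted p = 1.08e-25). Fdft1 had 124 CPM in Irx5KO and 95.8 CPM in WT oligodendrocyte-like cells, against 36.7 and 26.7 CPM in OPC-like cells, 5.29-fold higher (edgeR adjusted p = 6.77e-07). Msmo1 was 3.99-fold and Cyp51 3.36-fold higher (edgeR adjusted p = 5.53e-12 and 1.42e-07), and both were higher in each library. Abca1 was the gene called lower, at 6.77-fold (edgeR adjusted p = 0.0121), on 1 and 2 UMIs in oligodendrocyte-like cells against 5 and 11 UMIs in OPC-like cells (Irx5KO and WT). Its CPM ratio was 0.0817 (0.00173 to 0.730) in Irx5KO and 0.117 (0.0126 to 0.537) in WT. With library totals the median gene of this contrast moved by -0.56 on the log2 scale, 6.29% of all genes were called higher and 20.7% lower, and 6 members were higher, without Fdps, Lss and Sc5d. OPC markers in oligodendrocyte-like cells summed to 14.5% (Irx5KO) and 9.94% (WT) of their OPC-like level, and oligodendrocyte markers in OPC-like cells to 1.07% and 1.24% of their own. Their part in these differences was not tested.

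Of the 19 enzymes 8 were called higher in this contrast, 10 were not called and 1 was not tested. Committed precursor (COP)-like cells, 15 in Irx5KO and 20 in WT, were not part of it. Their enzyme sum over that of OPC-like cells was 0.539 (0.299 to 0.911) in Irx5KO and 1.08 (0.821 to 1.41) in WT. Dhcr7 had 71.2 CPM in Irx5KO and 93.4 CPM in WT oligodendrocyte-like cells, against 91.8 and 72.4 CPM in OPC-like cells, and was not called (edgeR adjusted p = 0.276). Acat2 had 82.5 and 49.1 CPM in oligodendrocyte-like cells, against 82.6 and 57.1 CPM in OPC-like cells, and was not called (edgeR adjusted p = 0.512). In OPC-like over neuron-like cells these were the 2 synthesis enzymes called higher.

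In that contrast 6 members were higher and 2 lower, where 12.5% and 15.2% of all genes were called. Dhcr7 had 24.9 CPM in Irx5KO and 18.1 CPM in WT neuron-like cells and was 3.42-fold higher in OPC-like cells (edgeR adjusted p = 0.000114). Acat2 was 2.13-fold higher (edgeR adjusted p = 0.0316). The other 4 were Abca1, Srebf1, Nr1h2 and Scap, the escort that carries SREBP to the Golgi. Abca1 had 45.9 CPM in Irx5KO and 41.9 CPM in WT OPC-like cells, against 6.48 and 2.83 CPM in neuron-like cells, 9.24-fold higher (edgeR adjusted p = 6.45e-06). Srebf1 had 55.1 and 38.1 CPM in OPC-like cells, against 10.4 and 8.48 CPM in neuron-like cells (Irx5KO and WT), 4.35-fold higher (edgeR adjusted p = 0.000277). Both genes were higher in OPC-like cells of each library. Nr1h2 had 27.5 CPM in Irx5KO and 68.6 CPM in WT OPC-like cells, against 18.5 and 16.4 CPM in neuron-like cells, 2.89-fold higher (edgeR adjusted p = 0.00356). The Irx5KO value of OPC-like cells rests on 3 UMIs, the CPM ratio was 1.49 (0.299 to 4.58) in Irx5KO and 4.18 (2.19 to 7.79) in WT, and the call was lost with DESeq2. Insig2 was 2.34-fold and Fdft1 2.27-fold lower (edgeR adjusted p = 0.000618 and 0.0285). DESeq2 called 3 members higher and 0 lower here, with 6 and 2 at an unadjusted p under 0.05, and the Scap, Acat2 and Fdft1 calls were lost in 4 or 5 of 13 alternatives. Neuron markers in OPC-like cells summed to 8.67% (Irx5KO) and 5.32% (WT) of their neuron-like level, and astrocyte markers, all 8 with a UMI, to 10.1% and 14.8% of their astrocyte-like level. Tanycyte markers there summed to 25.1% and 35.7% of their tanycyte-like level. Of the 10, 5 had a UMI in Irx5KO and 7 in WT. Slc17a8 and Col23a1 were at 0 in both libraries, Crym, Scn7a and Lhx2 in Irx5KO, and Rax in WT. The part of the neuron, astrocyte and tanycyte markers in these differences was not tested.

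Tanycytes are elongated glia in the ventricle wall beside the median eminence. In tanycyte-like over neuron-like cells 6 of the 27 members tested were higher and 3 lower, where 21.2% and 21.7% of all genes were called. The count of higher members lies near the share of all genes called higher. Of the 6, Srebf1, Scap and Insig1 belong to SREBP control, Abca1 and Nr1h2 to sterol efflux and sensing, and Hsd17b7 to the enzymes. Srebf1 encodes the SREBP best known for driving fatty acid synthesis. It had 230 CPM in Irx5KO and 205 CPM in WT tanycyte-like cells, against 10.4 and 8.48 CPM in neuron-like cells, a fold of 24.8 (edgeR adjusted p = 3.92e-79). Among the 4 classes it was highest in tanycyte-like cells in both libraries, with no overlap with the others. Oligodendrocyte-like cells followed with 63.7 CPM in Irx5KO and 54.1 CPM in WT, and were not called against OPC-like cells (edgeR adjusted p = 0.125). Ependymal-like cells, the ciliated neighbours of tanycytes, had 209 and 195 CPM.

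Abca1, the pump that loads cholesterol onto lipoprotein particles, had 50.5 CPM in Irx5KO and 24.3 CPM in WT tanycyte-like cells, 8.44-fold above neuron-like cells (edgeR adjusted p = 1.56e-10). Nr1h2 had 66.0 CPM in Irx5KO and 95.5 CPM in WT tanycyte-like cells, against 18.5 and 16.4 CPM in neuron-like cells, 4.88-fold higher (edgeR adjusted p = 3.21e-15). Insig1 had 93.2 CPM in Irx5KO and 48.6 CPM in WT tanycyte-like cells, against 37.2 and 32.2 CPM in neuron-like cells, 2.26-fold higher (edgeR adjusted p = 8.24e-06). For all 3 genes the groups do not overlap. Microglia-like cells also had Abca1, at 184 CPM in Irx5KO and 68.5 CPM in WT. Microglia markers in tanycyte-like cells summed to 0.0716% and 0.0841% of the microglia-like level, and in OPC-like cells to 0.0597% and 0.0851%. Their part in the Abca1 values was not tested.

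The 3 members lower in tanycyte-like cells were enzymes. Pmvk had 32.4 CPM in Irx5KO and 46.9 CPM in WT tanycyte-like cells, against 119 and 93.8 CPM in neuron-like cells, 2.53-fold lower (edgeR adjusted p = 2.61e-07). Fdps had 22.0 and 17.4 CPM in tanycyte-like cells, against 41.8 and 52.0 CPM in neuron-like cells (Irx5KO and WT), 2.10-fold lower (edgeR adjusted p = 0.003). Neither gene's groups overlap. Fdft1 was 1.55-fold lower (edgeR adjusted p = 0.0398), a call lost in 5 of 13 alternatives. Hmgcs1 was not called between these classes (edgeR adjusted p = 0.301). Markers of astrocytes in tanycyte-like cells, all 8 with a UMI, summed to 21.9% (Irx5KO) and 25.3% (WT) of their own class's level, and those of ependymal cells to 19.9% and 18.0%. Their part in these differences was not tested.

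In tanycyte-like over OPC-like cells, where 12.7% of all genes were called higher and 10.2% lower, 2 members were higher and 5 lower. Srebf1 was 5.71-fold higher (edgeR adjusted p = 6.6e-12), while Insig2 was 2.06-fold higher with CPM ratios of 1.23 in Irx5KO and 2.28 in WT. The lower ones were all enzymes, namely Dhcr7 (5.14-fold), Fdps (2.88-fold), Acat2 (2.63-fold), Pmvk (2.29-fold) and Cyp51 (1.93-fold), the last not called in 9 of 13 alternatives. In oligodendrocyte-like over tanycyte-like cells, where 14.0% and 17.4% of all genes were called, 14 members were higher. Dhcr7 (8.05-fold), Fdps (7.27-fold), Cyp51 (6.49-fold), Ebp (6.06-fold) and Hmgcs1 (5.80-fold) had the largest folds. The 3 lower were Srebf1 (2.93-fold), Insig2 (3.0-fold) and Abca1 (6.19-fold). With library totals 9.40% of all genes were called higher and 13.9% lower in tanycyte-like over OPC-like cells, with 1 and 5 members, and 10.4% and 25.6% in oligodendrocyte-like over tanycyte-like cells, with 12 and 4 members. The median gene moved by -0.23 and -0.33 on the log2 scale in these contrasts.

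**Figure D3:**
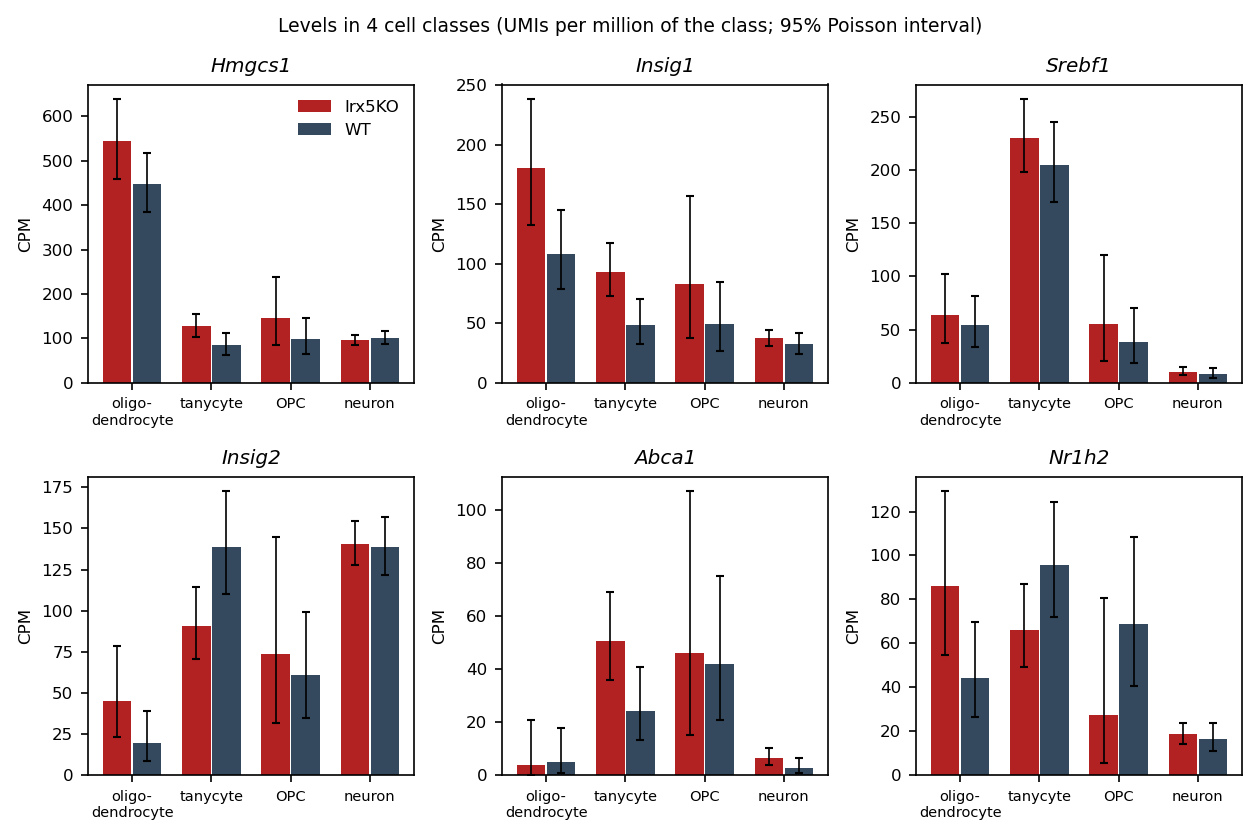
CPM of 6 members in oligodendrocyte-like, tanycyte-like, OPC-like and neuron-like cells, Irx5KO left of WT, with exact Poisson 95% intervals and axes that start at 0 and differ between panels. Hmgcs1 and Insig1 are highest in oligodendrocyte-like cells, Srebf1 in tanycyte-like cells (230 and 205 CPM), and Insig2 is lowest in oligodendrocyte-like cells.

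Over the 4 classes, 10 members were highest in oligodendrocyte-like cells in both libraries: Hmgcs1, Idi1, Fdps, Fdft1, Lss, Cyp51, Msmo1, Ebp, Sc5d and Insig1. Srebf1 was highest in tanycyte-like cells, Acat2 and Scap in OPC-like cells, and Ggps1 in neuron-like cells. For the other 14 the highest class differed between the libraries. The shares of all genes highest in each class were not counted, so these counts have no background to be read against.

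The tanycyte-like cells fell into 2 clusters, and their cholesterol genes differed. One was led by Scn7a, Cldn10, Cyr61 and Col23a1 and held 103 Irx5KO and 75 WT cells, 26.3% and 26.4% of the class. The other was led by Cyr61, Crym, Mlc1 and Gja1. Median depth was 2487.5 UMIs per cell in the Scn7a-led cells and 1544 in the Crym and Mlc1 cells, and ependymal markers summed to 10.5% (Irx5KO) and 9.93% (WT) of their ependymal-like level in the Scn7a-led cells, against 24.8% and 22.4% in the Crym and Mlc1 cells. Astrocyte markers summed to 18.2% and 21.2% of their astrocyte-like level in the Scn7a-led cells, against 23.8% and 27.5% in the Crym and Mlc1 cells. The part of depth and of these markers in the differences was not tested. The 19 enzymes summed to 431 CPM in Irx5KO and 420 CPM in WT in the Scn7a-led cells, against 884 and 693 CPM in the Crym and Mlc1 cells, a ratio of 0.487 (0.393 to 0.599) in Irx5KO and 0.605 (0.468 to 0.776) in WT. Srebf1 went the other way, with 340 and 326 CPM in the Scn7a-led cells, against 173 and 139 CPM in the Crym and Mlc1 cells (Irx5KO and WT). So did Abca1, with 98.2 and 54.3 CPM in the Scn7a-led cells, against 25.6 and 8.03 CPM in the Crym and Mlc1 cells, the last resting on 3 UMIs, and a ratio of 3.84 (1.90 to 8.13) in Irx5KO and 6.76 (1.79 to 37.7) in WT. Insig2 had 128 and 188 CPM in the Scn7a-led cells, against 70.9 and 112 CPM in the Crym and Mlc1 cells.

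Of the 15 members with at least 50 UMIs in these cells, 3 were at least 1.5-fold higher in the Scn7a-led cells in both libraries, Srebf1, Insig2 and Abca1, and 5 were at least 1.5-fold lower, Hmgcs1, Pmvk, Sqle, Cyp51 and Insig1. The intervals of Pmvk, Sqle and Cyp51 include 1 in both libraries. Over all 5421 genes with as many UMIs, 10.2% were higher and 10.9% lower by that rule. Insig1 had 56.7 CPM in Irx5KO and 14.8 CPM in WT Scn7a-led cells, against 112 and 66.9 CPM in the Crym and Mlc1 cells. The WT value of the Scn7a-led cells rests on 3 UMIs, and the ratio was 0.505 (0.265 to 0.904) in Irx5KO and 0.221 (0.0428 to 0.725) in WT. Hmgcs1 had 22.7 and 49.4 CPM in the Scn7a-led cells, against 181 and 104 CPM in the Crym and Mlc1 cells. These contrasts between clusters have no test and are given as sizes, and the clusters were not formed from these genes.

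**Figure D4:**
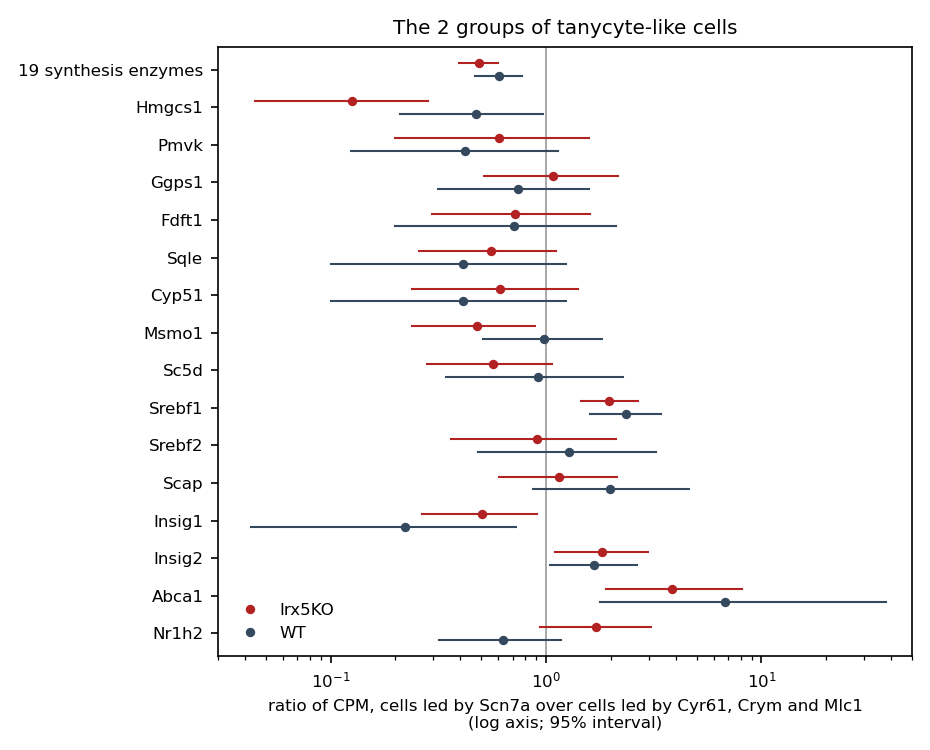
Ratio of CPM between the 2 clusters of tanycyte-like cells, Scn7a-led over Crym and Mlc1, for the sum of 19 enzymes and the 15 members with at least 50 UMIs, on a log axis with exact conditional binomial 95% intervals, Irx5KO above WT. The enzyme sum, Hmgcs1 and Insig1 lie left of 1 in both libraries, and Srebf1, Insig2 and Abca1 lie right of it.

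Genes around the pathway were counted by list, beside the shares of all genes called in each contrast, which were 18.3% higher and 22.7% lower in oligodendrocyte-like, 21.2% and 21.7% in tanycyte-like, and 12.5% and 15.2% in OPC-like over neuron-like cells. The counts of 2 lower genes of 8 and of 10 below lie near the share of all genes called lower. Of 11 fatty acid synthesis genes tested, 11 were higher in oligodendrocyte-like than in neuron-like cells, with a median log2 fold of 2.62. Scd2, a fatty acid desaturase, had 3213 CPM in Irx5KO and 4015 CPM in WT oligodendrocyte-like cells, against 176 and 229 CPM in neuron-like cells (24.6-fold), and Elovl1, an elongase of very long chains, was 69.8-fold higher. In tanycyte-like cells 8 of the 11 were higher than in neuron-like cells and 1, Elovl6, was lower, with a median of 1.38. In OPC-like cells 7 of the 11 were higher, with a median of 1.65.

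Of 10 genes of uptake and lysosomal release, 7 were higher and 2 lower in oligodendrocyte-like than in neuron-like cells. Npc1 and Npc2, which pass cholesterol out of the lysosome, were 11.4-fold and 7.87-fold higher. Of 8 genes of efflux, 4 were higher and 2 lower, with Abca2, a transporter abundant in oligodendrocytes, at 236 CPM in Irx5KO and 251 CPM in WT oligodendrocyte-like cells, against 32.7 and 28.8 CPM in neuron-like cells. Of the same efflux genes, 3 were higher in tanycyte-like than in neuron-like cells, Apoe, Apoc1 and Apod. Abcg1 was the 1 called lower there, at 2.47-fold (edgeR adjusted p = 0.000116). Of 8 genes of hydroxylation and storage, 2 were higher and 1 was lower, with Cyp27a1, a sterol 27-hydroxylase, higher and Cyp46a1, the 24-hydroxylase through which neurons shed cholesterol, 3.64-fold lower in oligodendrocyte-like cells. In tanycyte-like over neuron-like cells 4 of these 8 were higher, Soat1, Plin2, Cyp27a1 and Cyp7b1, and 3 were lower, Dgat2, Nceh1 and Cyp46a1. Soat1, which esterifies cholesterol for storage, had 114 CPM in Irx5KO and 135 CPM in WT tanycyte-like cells, against 11.0 and 10.7 CPM in neuron-like cells, 12.1-fold higher (edgeR adjusted p = 3.14e-37). Plin2, which coats lipid droplets, was 9.37-fold higher there. Of 8 genes of the isoprenoid branches 3 were higher in oligodendrocyte-like cells, and of 12 other synthesis enzymes and helpers 5 were higher and 2 lower, among them Pgrmc1, which binds a demethylase of the pathway, at 6.01-fold lower.

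Between the genotypes there is 1 library each, so no difference has a test or a replicate check, and the interval of a ratio covers counting error. In oligodendrocyte-like cells the enzyme sum was 2265 CPM in Irx5KO, against 1752 CPM in WT, a ratio of 1.29 (1.16 to 1.44). Of the 604 UMIs in the Irx5KO sum, 35 were Hmgcs1 UMIs of a single cell. In tanycyte-like cells the ratio was 1.22 (1.07 to 1.40), in OPC-like cells 1.13 (0.905 to 1.41), and in neuron-like cells 0.974 (0.913 to 1.04). The intervals of the neuron-like and OPC-like ratios include 1.

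Of 10 members with at least 50 UMIs in oligodendrocyte-like cells, 2 were at least 1.5-fold higher in Irx5KO, where 9.18% of all genes measured were, and the median log2 ratio was 0.34 over the members and -0.01 over all genes. Cyp51 had 259 CPM in Irx5KO, against 165 CPM in WT, a ratio of 1.57 (1.11 to 2.23), and Insig1 had 180 CPM in Irx5KO, against 108 CPM in WT, a ratio of 1.67 (1.08 to 2.56). Msmo1, just under 1.5-fold, had a ratio of 1.48 (1.10 to 1.99). The mean of CPM per cell, which weighs each cell alike, gave a log2 ratio of 0.39 for Cyp51 in place of 0.65, under 1.5-fold.

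Of 15 members measured in tanycyte-like cells, 4 were at least 1.5-fold higher in Irx5KO and 1 was lower, where 10.1% and 8.06% of all genes were. Insig1 had 93.2 CPM in Irx5KO, against 48.6 CPM in WT, a ratio of 1.92 (1.22 to 3.08). Abca1 had 50.5 CPM in Irx5KO, against 24.3 CPM in WT, a ratio of 2.08 (1.10 to 4.14), on 39 UMIs in Irx5KO and 14 in WT. Sc5d had 73.8 CPM in Irx5KO, against 41.7 CPM in WT, a ratio of 1.77 (1.08 to 2.99). Hmgcs1, just under 1.5-fold, had 127 CPM in Irx5KO, against 85.0 CPM in WT, a ratio of 1.49 (1.05 to 2.15). Sqle, at a ratio of 1.66, had an interval that includes 1. Insig2 was the lower one, with 90.6 CPM in Irx5KO, against 139 CPM in WT, a ratio of 0.653 (0.467 to 0.911). By the mean of CPM per cell Insig1 had a log2 ratio of 0.40 in place of 0.94 and Insig2 -0.52 in place of -0.62, both under 1.5-fold.

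The shares of the 2 tanycyte-like clusters were alike in the libraries, and within them the enzyme ratio was 1.03 (0.768 to 1.38) in the Scn7a-led cells and 1.28 (1.09 to 1.49) in the Crym and Mlc1 cells. In the Crym and Mlc1 cells Hmgcs1 had 181 CPM in Irx5KO, against 104 CPM in WT, a ratio of 1.74 (1.18 to 2.59), and Nr1h2 had 53.2 CPM in Irx5KO, against 110 CPM in WT, a ratio of 0.485 (0.287 to 0.807). In the Scn7a-led cells the values lay the other way round, where Hmgcs1 had 22.7 CPM in Irx5KO, against 49.4 CPM in WT, on 6 and 10 UMIs, and Nr1h2 had 90.7 CPM in Irx5KO, against 69.1 CPM in WT, a ratio of 1.31 (0.652 to 2.74). The Insig2 ratio was 0.685 in the Scn7a-led cells and 0.631 in the Crym and Mlc1 cells, both with intervals that include 1.

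In OPC-like cells, where 7.96% of all genes measured were higher and 14.5% lower, 0 members reached 50 UMIs. Of 24 measured in neuron-like cells, where the same rule took 12.4% of all genes as higher and 6.41% as lower, Tm7sf2 was higher (1.81, 0.928 to 3.81) and Mvd lower (0.645, 0.389 to 1.07), and both intervals include 1. Pmvk, at 1.27 (1.06 to 1.54), and Msmo1, at 0.811 (0.674 to 0.979), were under 1.5-fold with intervals that leave out 1. Hmgcs1 had 96.8 CPM in Irx5KO, against 101 CPM in WT neuron-like cells, and Insig2 had 141 CPM in Irx5KO, against 138 CPM in WT.

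**Figure D5:**
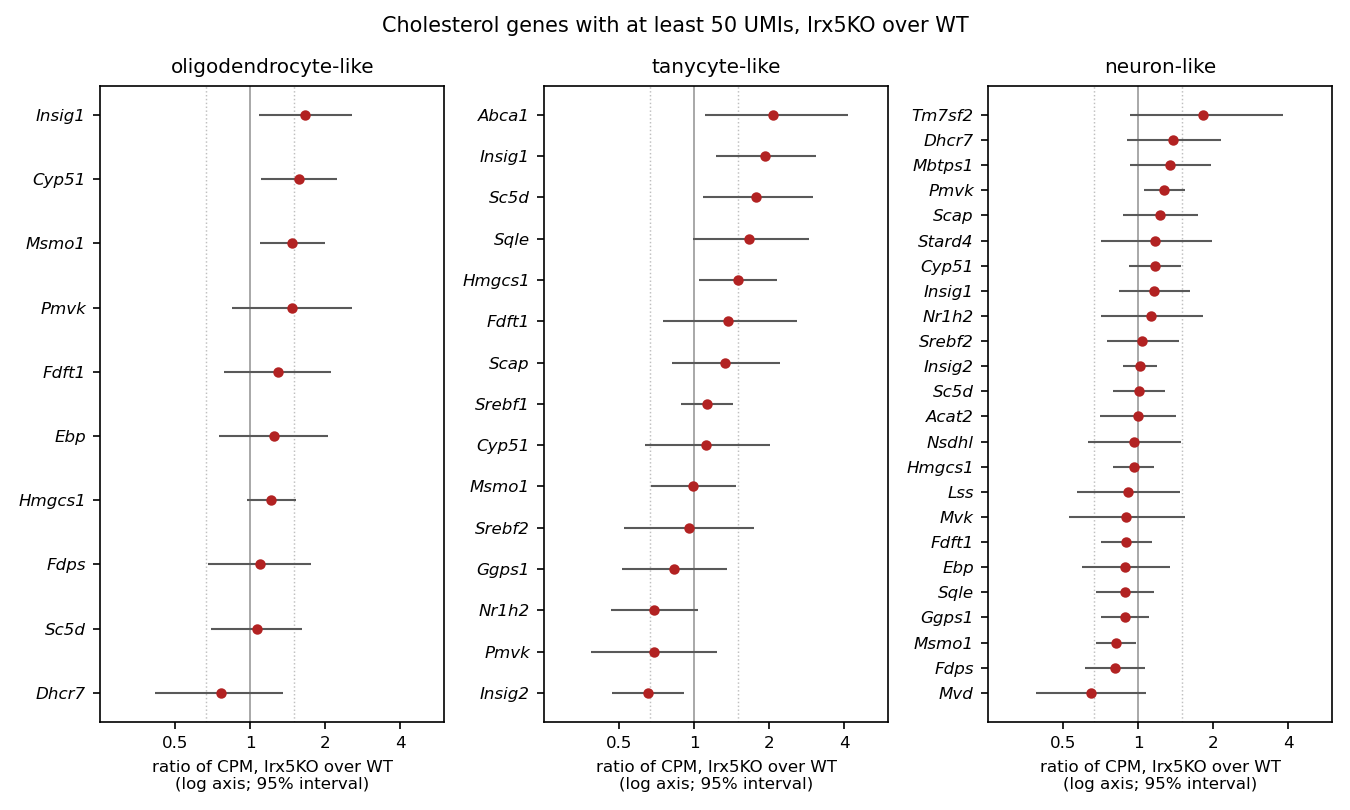
Ratio of CPM in Irx5KO over WT for members with at least 50 UMIs in oligodendrocyte-like (10 genes), tanycyte-like (15) and neuron-like cells (24), on a log axis with exact conditional binomial 95% intervals that cover counting error. Dotted lines mark 1.5-fold either way. Most neuron-like ratios lie near 1, and Insig1, Abca1, Sc5d, Hmgcs1 and Insig2 in tanycyte-like cells have intervals that leave out 1.

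Some members share sequence with other genes near their 3' ends, where the UMIs arise, and the counting strand was not known. Near-identical transcripts exist for Fdps (6 genes, 97 UMIs against 420 for Fdps), Acat2 (Acat3, 22 against 293), Insig1 (21 against 516) and Tm7sf2 (Vps51, 120 against 118), so the values of Tm7sf2 are uncertain. Dhcr7 shares a stretch of its end with 35 genes, which had 949 UMIs against its 265. Srebf2 does so with 3 genes (824 UMIs against 352) and Stard4 with 4 genes (644 against 134). The values of Dhcr7, Srebf2 and Stard4 are therefore uncertain too. Idi1 (2 genes, 17 against 40) and Fdft1 (Gm6781, 33 against 515) also have matches. Fdft1, Cyp51 and Srebf1 end opposite Ctsb, Akap9 and Rai1. Rai1 had 24.6 CPM in Irx5KO and 15.6 CPM in WT tanycyte-like cells, against 31.4 and 27.7 CPM in neuron-like cells, and Akap9 had 169 and 123 CPM in oligodendrocyte-like cells, against 355 and 402 CPM in neuron-like cells. Ctsb had 555 and 369 CPM in oligodendrocyte-like cells, against 530 and 444 CPM in neuron-like cells. Their part in the values of Fdft1, Cyp51 and Srebf1 was not tested.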

How the data were processed

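Single cells of both pools were profiled by Drop-seq, and groups follow the genotype labels. For WT the authors deposited UMI counts. For Irx5KO, and for a table merging both libraries, the authors deposited natural log values, in which each barcode's counts were first scaled to a sum of 10000 and 1 was added. Reads were handled with STAR 2.6.0b, Seurat 3, Picard and bcl2fastq on mm10, per the submitters' processing notes, without their settings. Whole UMIs were recovered from the log values: 100% of values came out whole, and 0 of 4275938 WT UMIs differed from the deposited counts. Raw counts had been assumed for all tables. The merged table held 26840 genes and 4977 barcodes, 2350 Irx5KO and 2627 WT, and 1 barcode sequence occurred in both libraries.

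Barcodes with at least 500 genes were kept, and 23 Irx5KO and 10 WT doublets called by Scrublet were removed. Cells were clustered with scanpy 1.11.5 (2000 variable genes, 30 components, 15 neighbours, Leiden resolution 1), without the members and pathway lists, and named from marker lists. UMIs were summed per class and library and tested with edgeR 4.0.16 (R 4.3.3, TMM, library block, Benjamini-Hochberg). The libraries differ in genotype and nothing says that they are replicates, so p-values measure the spread between these sums. The prior degrees of freedom were infinite, so all genes share 1 trend of the spread. On simulated sums of the oligodendrocyte-like over neuron-like contrast (12821 genes, 200 changed) the test recovered 76% of 2-fold and 100% of 4-fold genes, with 1.7% false calls. The changed genes were all raised and came from those with at least 200 UMIs, and the spread was that of the fit itself. All other genes kept equal shares in every class, while in the data 18.3% were called higher and 22.7% lower. These rates therefore cannot be carried over to the data. DESeq2 1.42.0, other filters, clusterings and scalings were alternatives.

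Ratios have exact conditional binomial and sums exact Poisson 95% intervals, which cover counting error only. Members and lists were chosen with earlier results of these data known. Full values are given for up to 4 members per direction and contrast by adjusted p, up to 3 per direction between genotypes by the interval bound nearest to 1, and for some of up to 3 genes per list and contrast. Genes outside this rule, and the comparison of tanycyte-like clusters, were chosen after their values were seen. Sequence matches near 3' ends were searched in the last 500 bases of GENCODE M21 transcripts, at 95% identity over at least 60 bases.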

Additional observations from a re-analysis of the deposited data

Results flagged for a closer look

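The WT table held 173 barcodes that are absent from the merged table and enter no comparison. They carried 159 UMIs of the 28 genes among 148010 UMIs, or 1074 CPM (914 to 1255), which is above the level that 3 UMIs would give (20.3 CPM). That level is a floor of detection, so passing it does not set these barcodes apart. In WT the same 28 genes had 1137 CPM (1088 to 1188) in neuron-like cells. Over all WT classes they ranged from 521 CPM in microglia-like to 2130 CPM in oligodendrocyte-like cells.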

How the results depend on the processing

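No called member changed direction in any of the 13 alternatives to the class fits. Counts of members that moved by more than 1.5 times were the following. In oligodendrocyte-like over neuron-like cells the 2 lower members became 1 without the library block, with DESeq2 and with cells of at least 200 genes. In OPC-like over neuron-like cells DESeq2 called 3 higher in place of 6 and 0 lower in place of 2, and 1 was lower with library totals, without the block, with cells of at least 800 genes and with doublets kept. In oligodendrocyte-like over OPC-like cells 0 were lower in place of 1 with cells of at least 800 genes, with 1 at an unadjusted p under 0.05 (edgeR). In tanycyte-like over OPC-like cells 1 was higher in place of 2 with library totals, without the block, with DESeq2 and with cells of at least 200 genes, and 3 were lower in place of 5 with DESeq2 and with cells of at least 200 genes. Counting called members at least 1.5-fold apart in the remaining library, leaving out 1 library gave 1 to 2 there, where leaving out WT gave 1. Of the further lists in oligodendrocyte-like over neuron-like cells, the 5 higher helpers became 3 with DESeq2, library totals, no UMI minimum, no block, 800 genes and the separate tables, and the 2 lower ones 1 with DESeq2 and without the block. The 2 lower efflux genes became 1 with DESeq2. The 2 higher genes of hydroxylation and storage became 1 with DESeq2, library totals and no UMI minimum, and the 1 lower became 2 with library totals and no UMI minimum. The isoprenoid list, with 0 lower (1 at an unadjusted p under 0.05 in edgeR, 0 in DESeq2), had 1 lower with library totals and no UMI minimum. Between genotypes, the 2 members of oligodendrocyte-like cells became 1 at 100 UMIs, with 800 genes and with classes from a marker score per cell, and 9 at 20 UMIs. The 5 of tanycyte-like cells became 2 at 100 UMIs and with 800 genes, and 3 with 200 genes, at resolution 0.5 and with the score per cell. The 0 of OPC-like cells became 5 at 20 UMIs, and the 2 of neuron-like cells 0 at 100 UMIs and 1 with 200 genes, 800 genes or the score per cell. The cause was not tested where the alternative does not itself change the genes or cells. No paired analysis was possible between genotypes because each has 1 library. Pairing classes by library is the block of the class fits. OPC-like cells, with 108951 UMIs in Irx5KO, limit what can be seen there.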
